A study of Mus musculus with 4 samples.

Results

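The genes described here are the SR, hnRNP and RBM splicing regulators of the mouse hippocampus, chosen by gene symbol as every Srsf gene with a number, every Hnrnp or Hnrp gene and every Rbm gene with a number. They number 67 of the 22609 genes counted, with 11 SR, 20 hnRNP and 36 RBM genes. RNA came from PELP1 FBKO mice, a forebrain knockout of the estrogen receptor co-regulator PELP1, and from FLOXED mice as their controls. Forebrain knockout is the reading of FBKO taken here. Animals of both genotypes were C57BL/6 and ovariectomized, carried estradiol (E2) mini pumps, went through global cerebral ischemia (GCI) and were killed after 24 h of reperfusion. There were 2 libraries of each genotype, the Cre line behind the knockout is not given in the sources used here, and no group was free of ischemia or of estradiol. The sources used here do not say whether both libraries of 1 genotype are from different mice. The spread behind each p-value is therefore that between libraries and may be technical.

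As background, SR proteins bind enhancer sequences in exons through an RNA recognition motif and recruit the spliceosome through a domain rich in arginine and serine. The hnRNP proteins coat nascent transcripts and often oppose SR proteins at the same exons, and the RBM genes are a loose set named for an RNA-binding motif, with roles from the spliceosome itself to the exon junction complex, RNA methylation and the nucleolus. Many of these factors control their own messages through exons that trigger decay, and in the brain they help set the exon choices of ion channels, receptors and synaptic proteins. PELP1 works in the nucleolus in ribosome maturation and has been linked to alternative splicing in breast cancer cells.

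Pelp1, the deleted gene, had 18.0 and 17.3 CPM in PELP1 FBKO against 26.7 and 26.3 CPM in FLOXED (log2 fold change -0.59, SE 0.149, adjusted p = 0.130 in edgeR's quasi-likelihood test, 0.0432 to 0.345 over the alternatives), over counts of the whole gene. Reads of Pelp1 thus remained in both PELP1 FBKO libraries. Reads in genes came to between 17524594 and 22447658 per library. Summed oligodendrocyte markers had 5800 and 6220 CPM in PELP1 FBKO against 2900 and 3700 CPM in FLOXED, with 8 of 8 on the higher side, and astrocyte markers 6190 and 5670 CPM against 3590 and 4550 CPM, again 8 of 8. CA1 pyramidal markers had 528 and 436 CPM in PELP1 FBKO against 673 and 782 CPM in FLOXED, with 6 of 6 on the lower side, and 7 general neuronal markers overlapped, at 6990 and 6010 CPM against 6400 and 6280 CPM. Microglial (7 of 7), endothelial and mural (6 of 6) and precursor markers (5 of 5) lay on the higher side, and so did 5 of 6 interneuron, 4 of 6 dentate and 4 of 5 meningeal markers. Choroid plexus and ependymal markers, 2 of 5 on the higher side, summed to 64.6 and 84.4 CPM in PELP1 FBKO against 353 and 106 CPM in FLOXED. Of 4 blood genes, Alas2 was tested and lay on the higher side, while Hbb-b1, Hbb-b2 and Hba-a1 had 0 reads. Of 17 heat shock and cold-inducible genes 14 lay on the lower side (median -0.43), beside 50.0% of all tested genes. In 9 of the 17, or 52.9%, both PELP1 FBKO libraries lay below both FLOXED libraries, beside 23% of all tested genes. Hsph1, 1 of these, had 386 and 622 CPM in PELP1 FBKO against 1040 and 923 CPM in FLOXED. Hspa1b overlapped, at 8.43 and 66.8 CPM against 132 and 60.3 CPM. Hspa1a and Hspb1 also overlapped and differed widely between the PELP1 FBKO libraries. The part of cell makeup, of stress state or of library depth in the levels of the splicing regulators was not tested.

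Levels of the splicing regulators were close in the 2 genotypes, and none passed the test. By edgeR's quasi-likelihood test, with p-values adjusted over all 14978 tested genes and a threshold of 0.05, 0 of 65 tested splicing regulators were called, where the rate over all genes was also 0% (0 genes). The smallest adjusted p among them was 0.178, for Srsf9. DESeq2 called 0 of them as well, against 3.18% of the genes it tested. At an unadjusted p under 0.05, edgeR found 7 of 65, or 10.8%, below the 15.6% of all tested genes. Of these 7 genes, 2 lay on the higher side in PELP1 FBKO and 5 on the lower, 3.08% and 7.69% of the 65, where all tested genes had 10.1% higher and 5.55% lower. The 2 genes left out of the test had too few reads. Rbm31y, a Y-linked gene, was at 0 reads throughout, where 3 reads in the shallowest library would be 0.171 CPM (counts scaled to library size, by TMM where a level is given), and Rbm44 had 0 and 2 reads in PELP1 FBKO against 3 and 0 reads in FLOXED.

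The range of fitted changes was narrow. The log2 fold change, PELP1 FBKO minus FLOXED, ran from -0.46 for Rbm42 to 0.66 for Rbm20, with a median size of 0.14, beside a median size of 0.20 over all tested genes. Rbm20 alone lay past a 1.5-fold change, 1.54% of the 65, beside 13.2% of all tested genes. For 46 of the 65 genes, or 70.8%, the 95% interval of the change lay wholly within 1.5-fold in either direction, beside 44.2% of all tested genes. The splicing regulators were also more abundant than most genes, with a median mean level of 54.4 CPM against 25.4 CPM, and deeper counts give narrower intervals. Medians of the standard error were 0.140 for the regulators and 0.174 for all tested genes.

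**Figure D1:**
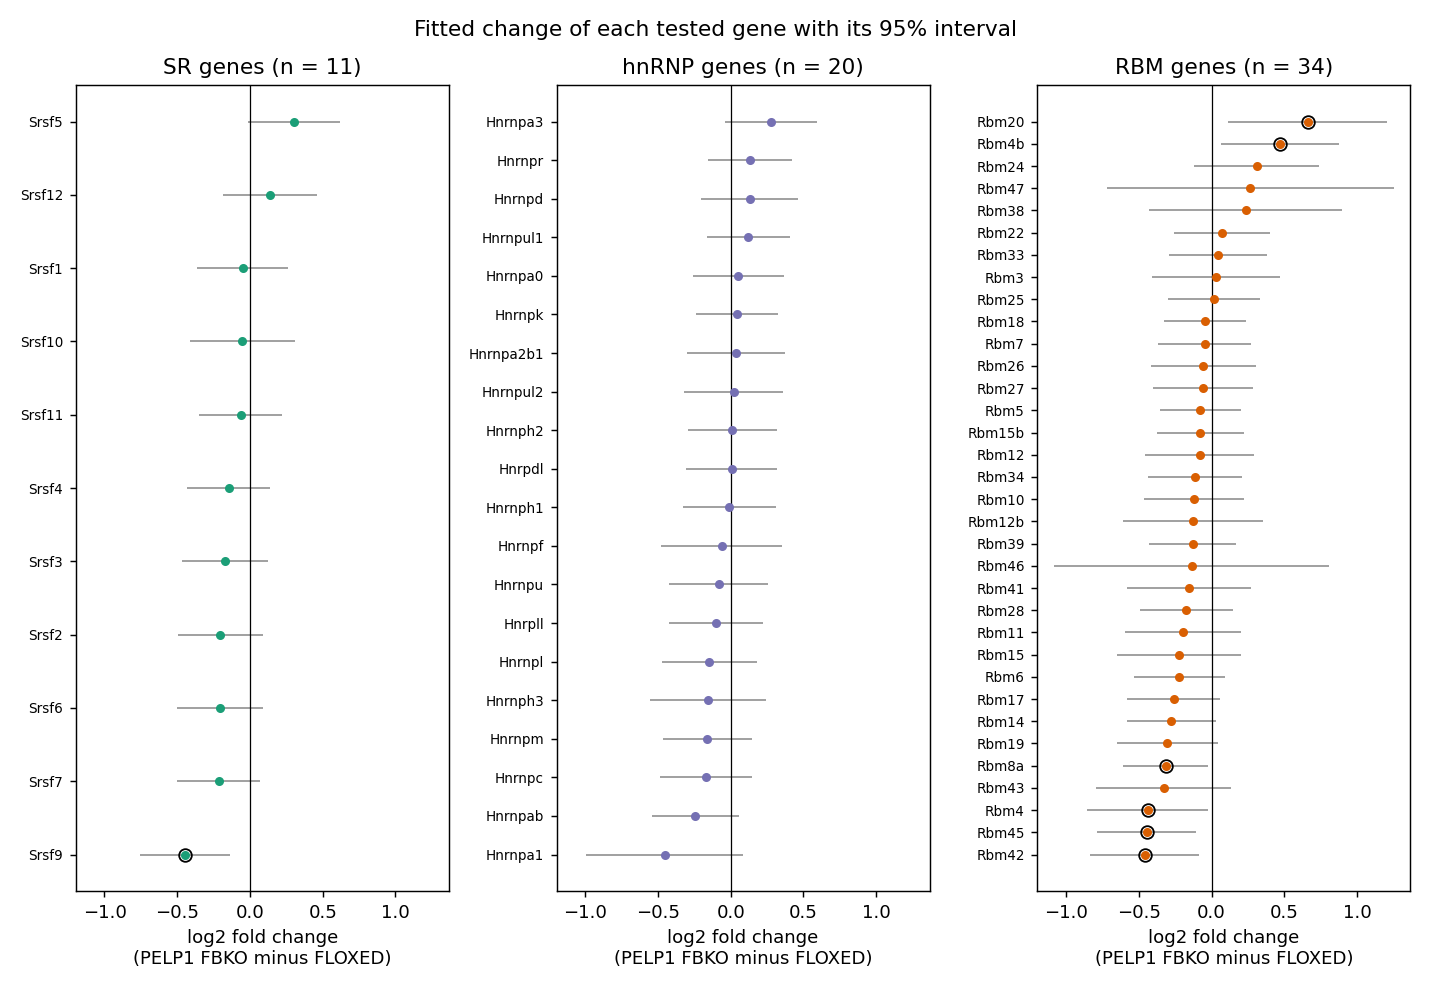
Log2 fold change (PELP1 FBKO minus FLOXED, x axis) of each tested SR, hnRNP and RBM gene, with its 95% interval as a grey line; 11, 20 and 34 genes stand in the panels. Black rings mark the 7 genes with an unadjusted p under 0.05, none of which passed after adjustment, and most points lie between -0.5 and 0.5.

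The families differed in the side on which their genes lay. Among SR genes 9 of 11 had a negative log2 fold change (median -0.15), and among RBM genes 25 of 34 did (median -0.12), while hnRNP genes split evenly, 10 on each side (median -0.00). Over all tested genes 50.0% were negative and the median was 0.00. The SR count was 9 of 11 and the RBM count 25 of 34 under each of 3 other scalings of read depth. The hnRNP median had the opposite sign with upper-quartile factors (0.03) and with library totals only (0.01), where the median over all tested genes was also 0.03 and 0.01. Leaving out a library changed the counts more. Without FLOXED 2, 7 of 11 SR genes were negative, and 13 of 20 hnRNP genes were negative without FLOXED 1 and likewise without PELP1 FBKO 1, so the contrast between families was smaller there. No test of the difference between families was made. Summed over the family, SR genes had 1070 and 1092 CPM in PELP1 FBKO, against 1168 and 1169 CPM in FLOXED. RBM genes summed to 1355 and 1366 CPM in PELP1 FBKO, against 1495 and 1479 CPM in FLOXED. In both families the genotypes did not overlap and the libraries of a genotype lay close together. The hnRNP sum, 3383 and 3361 CPM in PELP1 FBKO against 3325 and 3553 CPM in FLOXED, overlapped between the genotypes. Single abundant genes weigh most in such sums, and in bulk tissue fewer cells of a type and less RNA per cell cannot be told apart.

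**Figure D2:**
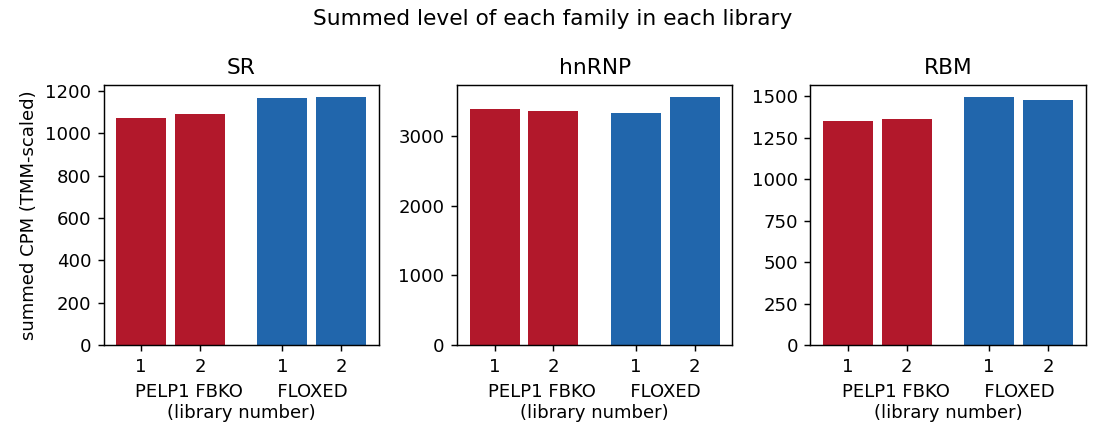
Summed CPM (y axis, TMM-scaled, from 0) of the 11 SR, 20 hnRNP and 36 RBM genes in each library, with the 2 PELP1 FBKO libraries left of the 2 FLOXED libraries. The SR and RBM bars of PELP1 FBKO end below both FLOXED bars, and the hnRNP bars overlap.

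Counted gene by gene, both PELP1 FBKO libraries lay below both FLOXED libraries in 28 of 65 genes, or 43.1%, beside 23% of all tested genes. They lay above in 10 of 65, or 15.4%, beside 25.4% of all tested genes. Together this made 38 of 65, or 58.5%, beside 48.4% of all tested genes. In the remaining genes the genotypes overlapped. The count on the lower side held 7 of 11 SR genes, 17 of 34 RBM genes and 4 of 20 hnRNP genes. Members of a family share libraries and are not independent of each other, so these shares describe the 4 libraries only.

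**Figure D3:**
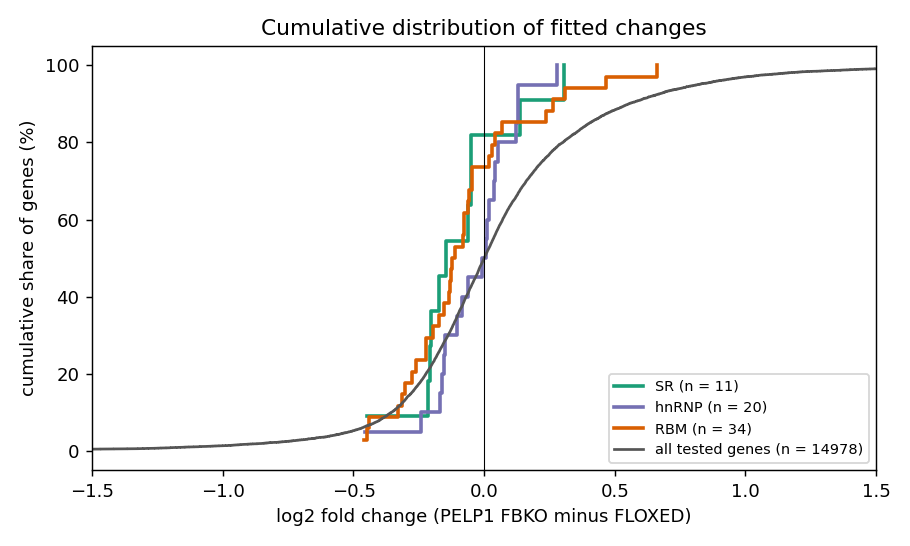
Cumulative share of genes (y axis, %) by log2 fold change (PELP1 FBKO minus FLOXED, x axis, cropped at 1.5 on either side) for SR, hnRNP and RBM genes and for all 14978 tested genes. The SR and RBM lines run left of the line for all genes over most of their range, and all family lines are steeper, with the hnRNP line crossing 50% near 0.

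Srsf9, which encodes a small SR protein active in exon selection, had the smallest p of the set. It stood at 46.3 and 45.7 CPM in PELP1 FBKO, against 67.3 and 58.2 CPM in FLOXED. The PELP1 FBKO libraries agreed closely and lay below both FLOXED libraries. The log2 fold change was -0.45 (SE 0.135, 95% interval -0.76 to -0.13), and the adjusted p of edgeR's quasi-likelihood test was 0.178, with 0.054 to 0.529 over 14 alternatives.

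Other SR genes on the lower side had smaller differences and none passed the test. Srsf7, an SR protein gene with a zinc knuckle, had 117 and 116 CPM in PELP1 FBKO against 141 and 130 CPM in FLOXED. Srsf6 had 122 and 133 CPM against 149 and 145 CPM, and Srsf2, the gene of the nuclear speckle protein SC35, had 125 and 116 CPM against 141 and 137 CPM. In each of these genes the genotypes did not overlap, with log2 fold changes of -0.22 (SE 0.125) for Srsf7, -0.21 (SE 0.127) for Srsf6 and -0.20 (SE 0.126) for Srsf2. Exons of Srsf2 overlap those of Mfsd11 and 1110005A03Rik on the opposite strand, and reads of such a pair cannot be told apart without strand. Srsf3, which also takes part in mRNA export, had 90.8 and 99.0 CPM in PELP1 FBKO against 111 and 103 CPM in FLOXED. The libraries again did not overlap, by a narrow margin.

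Srsf5 lay on the other side. It had 96.4 and 84.3 CPM in PELP1 FBKO, against 68.7 and 77.6 CPM in FLOXED, with a log2 fold change of 0.31 (SE 0.138, unadjusted p = 0.0573, adjusted p = 0.337 in edgeR's quasi-likelihood test). Without PELP1 FBKO 1 it was 0.19 (adjusted p = 0.913). The genotypes did not overlap, and the gap was smaller than the difference between the libraries within either genotype. Srsf1, the gene of the founding SR protein SF2/ASF, and Srsf10, whose product represses splicing when dephosphorylated, had overlapping levels. Srsf1 stood at 200 and 220 CPM in PELP1 FBKO and at 206 and 229 CPM in FLOXED. Its 95% interval, -0.36 to 0.26 on the log2 scale, leaves room for small changes in either direction. On the log2 scale Srsf10 had the largest difference within a genotype among SR genes, 35.5 against 43.7 CPM in the FLOXED libraries.

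Among RBM genes, Rbm45 and Rbm42 were the lowest relative to FLOXED with an unadjusted p under 0.05. Rbm45, a gene for an RNA-binding protein expressed in developing neurons, had 30.1 and 32.0 CPM in PELP1 FBKO against 46.0 and 38.8 CPM in FLOXED, a log2 fold change of -0.45 (SE 0.148, adjusted p = 0.211 in edgeR's quasi-likelihood test). Rbm42, whose product binds hnRNP K, had 59.4 and 61.6 CPM in PELP1 FBKO against 95.6 and 71.0 CPM in FLOXED. The difference between the FLOXED libraries of Rbm42 was larger than the gap between the genotypes. Its log2 fold change was -0.46 (SE 0.163, adjusted p = 0.238). Without FLOXED 2 it was -0.67 with an adjusted p of 0.0349, and Rbm42 was the only splicing regulator called in any of the 14 alternatives. Without FLOXED 1 the change was -0.23 (adjusted p = 0.556).

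Rbm8a encodes Y14, a core protein of the exon junction complex that splicing leaves on mRNA. It had 62.1 and 60.2 CPM in PELP1 FBKO against 79.7 and 72.4 CPM in FLOXED, a log2 fold change of -0.31 (SE 0.127, unadjusted p = 0.0382, adjusted p = 0.287 in edgeR's quasi-likelihood test). Its partner Magoh had 25.5 and 33.0 CPM in PELP1 FBKO against 37.4 and 31.0 CPM in FLOXED, and there the genotypes overlapped.

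All 5 genes on the lower side with an unadjusted p under 0.05 (Srsf9, Rbm45, Rbm42, Rbm8a and Rbm4) were higher in FLOXED 1 than in FLOXED 2. FLOXED 1 was also the shallowest library and had the largest share of alignments that were not unique, 47.7%, where the others had 38.5% to 41.5%. Without FLOXED 1 the log2 fold changes of these genes were -0.34 for Srsf9, -0.32 for Rbm45, -0.23 for Rbm42, -0.24 for Rbm8a and -0.23 for Rbm4. The part of that library in these results beyond this was not tested. The share of all tested genes that were higher in FLOXED 1 than in FLOXED 2 was not counted.

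**Figure D4:**
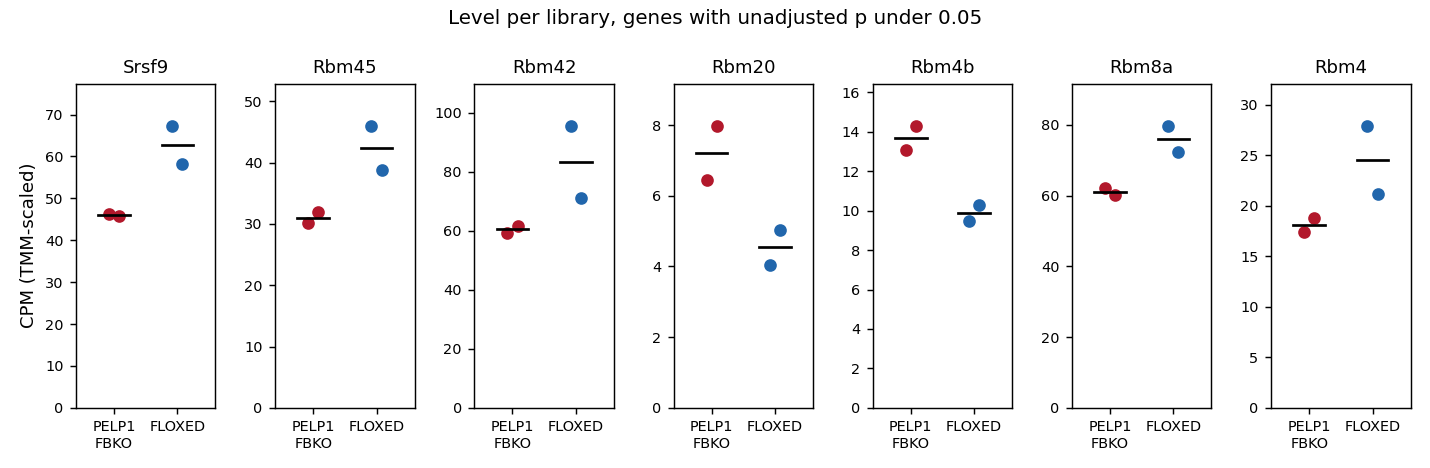
TMM-scaled CPM (y axes, each from 0) of the 7 splicing regulators with an unadjusted p under 0.05, in the 2 PELP1 FBKO libraries (red, left) and the 2 FLOXED libraries (blue, right), with black bars at the means. In each gene the genotypes do not overlap, and Rbm20 and Rbm4b are the genes higher in PELP1 FBKO.

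On the higher side stood Rbm20 and Rbm4b. Rbm20, known for splicing the titin message in heart, was low in these libraries, with 6.44 and 7.98 CPM in PELP1 FBKO (142 and 163 reads) against 4.05 and 5.03 CPM in FLOXED (71 and 109 reads). Its log2 fold change was 0.66 (SE 0.237, adjusted p = 0.242 in edgeR's quasi-likelihood test). Rbm24, another gene known from muscle splicing, had 20.3 and 15.6 CPM in PELP1 FBKO against 13.9 and 15.1 CPM in FLOXED. Its higher level rested mainly on PELP1 FBKO 1.

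Rbm4 and Rbm4b are neighbouring paralogs on chromosome 19 that encode very similar splicing regulators, and their levels lay on opposite sides. Rbm4 had 17.4 and 18.8 CPM in PELP1 FBKO against 27.9 and 21.2 CPM in FLOXED, a log2 fold change of -0.44 (SE 0.181, unadjusted p = 0.0411). Rbm4b had 13.1 and 14.3 CPM in PELP1 FBKO against 9.47 and 10.3 CPM in FLOXED, a log2 fold change of 0.47 (SE 0.176, unadjusted p = 0.0289). Neither passed after adjustment, with an adjusted p of 0.295 for Rbm4 and 0.261 for Rbm4b in edgeR's quasi-likelihood test. The ratio of Rbm4b reads to Rbm4 reads was 0.753 and 0.762 in PELP1 FBKO, against 0.339 and 0.487 in FLOXED. Both knockout libraries had nearly the same ratio, above that of both controls. Because each gene already separated the genotypes, in opposite directions, the ratio had to separate them as well. A two-sided exact permutation test of this ratio over the 4 libraries gave p = 0.333, the smallest value that 2 against 2 can give. That outcome was fixed by the levels above and adds no support.

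The coding sequences of this pair show what their counts rest on. Over 1083 aligned positions the longest GENCODE vM21 coding sequences of Rbm4 and Rbm4b were 85.1% identical, and the first 425 coding bases were the same in both. A 50-base read wholly inside that stretch matches both transcripts, so it has no unique place. The pair is shown over coding bases 351 to 500, counted from the start codon, with the 12 bases that differ in capitals, to mark where reads begin to tell the genes apart.
Rbm4: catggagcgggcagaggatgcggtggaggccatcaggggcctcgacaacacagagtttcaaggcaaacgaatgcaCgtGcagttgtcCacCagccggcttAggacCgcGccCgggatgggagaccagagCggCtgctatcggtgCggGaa
Rbm4b: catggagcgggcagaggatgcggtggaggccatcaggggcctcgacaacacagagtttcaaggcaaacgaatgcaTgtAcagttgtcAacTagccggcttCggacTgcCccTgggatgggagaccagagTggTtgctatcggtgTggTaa
Of the 50-base windows of the transcripts used for length, 37.9% of Rbm4 and 21.7% of Rbm4b occurred exactly in another gene. These transcripts have 1018 bases for Rbm4, fewer than its longest coding sequence of 1083, and 1783 for Rbm4b. The percentages thus rest on unlike lengths. Reads that carry a difference from the bases above, or lie outside the shared stretch, give the values of each gene.

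Rbm19 and Rbm28, whose products act in ribosome maturation in the nucleolus, had 18.0 and 19.2 CPM and 53.4 and 56.6 CPM in PELP1 FBKO, against 23.3 and 22.6 CPM and 56.9 and 67.1 CPM in FLOXED. The genotypes did not overlap in either gene, narrowly so in Rbm28. Log2 fold changes were -0.30 (SE 0.151) for Rbm19 and -0.17 (SE 0.138) for Rbm28. Rbm15 and Rbm15b, which guide the writer of m6A to RNA, had -0.22 (SE 0.185) and -0.08 (SE 0.129).

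Members that act in transcription as well as splicing included Rbm39 and Rbm14. Rbm39, a spliceosome-associated coactivator of estrogen receptors and AP-1, was the most abundant RBM gene, with 213 and 228 CPM in PELP1 FBKO against 245 and 238 CPM in FLOXED. Its log2 fold change was -0.13 (SE 0.130, adjusted p = 0.676 in edgeR's quasi-likelihood test), about the size of its standard error. Rbm14, a nuclear receptor coactivator and paraspeckle protein gene, had 33.3 and 32.4 CPM in PELP1 FBKO against 39.8 and 39.8 CPM in FLOXED, and -0.28 (SE 0.133, adjusted p = 0.371). The libraries of a genotype were almost equal here and the genotypes did not overlap.

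Rbm5, Rbm6, Rbm10 and Rbm17 encode related or early-acting spliceosome proteins that influence exon choice in cell death genes. In each of them both PELP1 FBKO libraries lay below both FLOXED libraries, as they did in 23% of all tested genes. Rbm10 was added to this group after its values were seen. Of its 50-base windows 44.0% also occur in other genes, and of those of Rbm6 15.3%. An exon of Rbm10 overlaps Ndufb11 on the opposite strand. Rbm17 had 44.1 and 46.1 CPM in PELP1 FBKO against 58.1 and 50.0 CPM in FLOXED, with -0.26 (SE 0.138), and -0.15 without FLOXED 1. Rbm6 had -0.22 (SE 0.136), Rbm10 -0.12 (SE 0.148) and Rbm5, with 118 and 115 CPM in PELP1 FBKO against 122 and 123 CPM in FLOXED, -0.08 (SE 0.122). None had an unadjusted p under 0.05. Rbm43 had the largest log2 difference within FLOXED among RBM genes of at least 5 CPM, 36.2 and 24.5 CPM, against 23.3 and 24.8 CPM in PELP1 FBKO, and the genotypes overlapped. Rbm25, which acts through U1 at the 5′ splice site of Bcl-x, overlapped between genotypes.

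Rbm3, the cold-inducible RNA-binding protein gene studied for protection of synapses and neurons, had the same level in every library. It stood at 7.89 and 8.28 CPM in PELP1 FBKO and at 7.93 and 7.89 CPM in FLOXED. The log2 fold change was 0.03 with a 95% interval from -0.41 to 0.47, so smaller changes than these bounds could have gone unseen. Of its 50-base windows 29.7% also occur in other genes, and an exon overlaps a gene on the opposite strand. The other cold-inducible family gene, Cirbp, is no member and was looked up after its values were seen. It had 95.3 and 81.1 CPM in PELP1 FBKO against 72.1 and 53.0 CPM in FLOXED (log2 fold change 0.50, SE 0.174, adjusted p = 0.235 in edgeR's quasi-likelihood test).

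Of the hnRNP genes, 0 of 20 had an edgeR result with an unadjusted p under 0.05, beside 15.6% of all tested genes. Hnrnpa2b1, whose product packages RNA and carries messages into dendrites, was the most abundant of the whole set, with 580 and 585 CPM in PELP1 FBKO and 536 and 599 CPM in FLOXED. Its interval ran from -0.30 to 0.37 on the log2 scale. Hnrnpu, a chromatin-associated scaffold gene, had 448 and 473 CPM in PELP1 FBKO and 455 and 522 CPM in FLOXED. For both genes the PELP1 FBKO libraries lay wholly or partly inside the range of the FLOXED libraries.

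The largest hnRNP differences were those of Hnrnpab, Hnrnpa3 and Hnrnpa1. Hnrnpab, a relative of hnRNP D that binds RNA and DNA, had 183 and 194 CPM in PELP1 FBKO against 229 and 218 CPM in FLOXED, with -0.24 (SE 0.129, unadjusted p = 0.0968). Hnrnpc, whose product binds runs of uridine and guards introns against false exons, had 188 and 216 CPM in PELP1 FBKO against 226 and 229 CPM in FLOXED. Hnrnpm had 150 and 148 CPM in PELP1 FBKO against 156 and 177 CPM in FLOXED. None of these overlapped between genotypes, and none passed the test. Hnrnpl, a binder of CA repeats, had 181 and 175 CPM in PELP1 FBKO and 215 and 180 CPM in FLOXED. Hnrnpk had 117 and 112 CPM in PELP1 FBKO and 109 and 113 CPM in FLOXED, and Hnrnph1, whose product binds runs of guanosine, had 235 and 231 CPM against 216 and 252 CPM. These 3 genes overlapped between the genotypes. Hnrnpd, the gene of the mRNA decay factor AUF1, differed most within FLOXED on the log2 scale among hnRNP genes after Hnrnpa1, at 170 and 206 CPM, against 211 and 201 CPM in PELP1 FBKO.

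Hnrnpa1 and Hnrnpa3 share much of their sequence with other loci. Hnrnpa1, a repressor of many exons, had only 104 and 88 reads in PELP1 FBKO and 96 and 149 reads in FLOXED, or 4.72 and 4.31 CPM against 5.47 and 6.87 CPM. Of its 50-base windows 54.2% occurred exactly in the transcripts of 20 other genes. Hnrnpa3 had 37.4 and 35.4 CPM in PELP1 FBKO against 29.8 and 30.2 CPM in FLOXED (log2 fold change 0.28, SE 0.137), and 90.5% of its windows were found in 45 other genes, of which 41 are annotated as pseudogenes. Reads with more than 1 place were left out of the counts, so the levels of these genes are understated by an unknown amount and their differences are uncertain.

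Per length, Hnrnpa2b1 led the set by a wide margin. Its level was 352 and 355 CPM per kb of transcript in PELP1 FBKO and 326 and 364 CPM per kb in FLOXED. Hnrnpab, Hnrnpc, Srsf7, Hnrnpd and Hnrnph1 followed with means of 143, 127, 121, 118 and 110 CPM per kb, and Rbm39 led the RBM genes with 85.2 CPM per kb. Among these 5 followers the libraries of neighbours overlap, so their order is not fixed. At the low end, Rbm46 and Rbm47, known from germ cells and from gut epithelium, had mean levels of 0.517 and 0.237 CPM per kb. Of the 67 genes, 37 had no 50-base window in common with another gene, and 17 shared 10% or more. Counted per kb of windows not shared, Hnrnpa3 moved to rank 2 of the set, where it had rank 36 per kb of whole transcript, while Hnrnpa1 moved to rank 51, where it had rank 59. Windows with 1 or more mismatches were not searched. The choice of transcript changes these shares and also the levels and ranks per kb. The transcript used for Srsf7, for example, has 1040 bases.

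**Figure D5:**
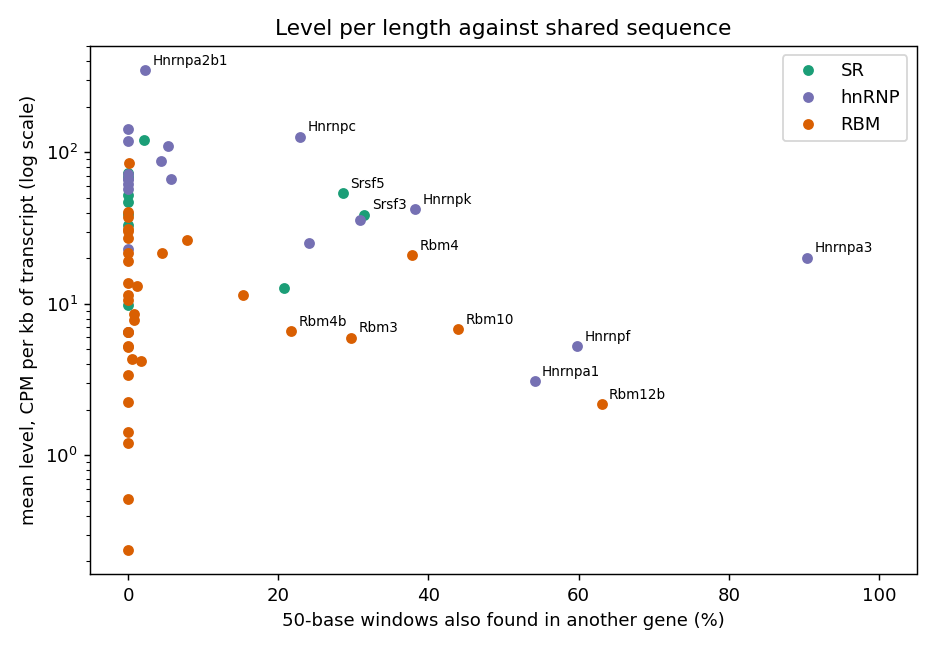
Mean level over the 4 libraries (y axis, CPM per kb of transcript, log scale) against the percentage of 50-base windows that occur exactly in another gene (x axis) for the 65 tested genes, coloured by family. Hnrnpa3, Rbm12b, Hnrnpf and Hnrnpa1 lie to the right, Hnrnpa3 near the middle of the levels and the others low, and Hnrnpa2b1 stands at the top with few shared windows.

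The bases before the start site were searched for all splicing regulators with an entry. Promoters of 58 of the 67 genes matched by symbol in the RefSeq table of GRCm38.p6, as 75 start sites. These had a median of 19 CpG in the 250 bases before the start, beside 6 over 32851 promoters of all genes. This background, also used below, was not limited to tested genes, while 65 of the 67 splicing regulators were tested. Both strands were searched for 6 letter patterns besides the full estrogen response element. The full element, GGTCA and TGACC with 3 free bases between, was in 0 of the 75, beside 0.0639% of all promoters, and its core AGGTCA, which the full element contains where an A comes before it, was in 7, or 9.33%, beside 14% of all. The CCAAT box (CCAAT) was in 45.3% beside 33.8%, the ETS pattern CCGGAAGT in 9.33% beside 2.88%, and the E-box CACGTG in 9.33% beside 6.02%. Start sites of 1 gene can lie close together, so 1 match can count more than once in these shares. By gene, 29 of 58 had the CCAAT box, 6 the ETS pattern and 7 the E-box. Shares by gene over all promoters were not counted. The heat shock pattern, GAA, TTC and GAA with 2 free bases between each, was in 1 promoter of Hnrnpa2b1, 1.33% beside 0.466%, and the cAMP pattern TGACGTCA was in 0 of 75, beside 1.55%. A match describes letters, not a bound site.

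The promoters of Srsf9, Rbm45 and Rbm42, the genes with the smallest p in the set, are shown over the 250 bases before the start, read 5′ to 3′ on the gene's strand, with any of the patterns in capitals. Srsf9 lies on the plus strand at chr5:115326927-115327176 and holds TGACCT, the AGGTCA core on the other strand. Rbm45, on the plus strand at chr2:76369734-76369983, holds none of the patterns. Rbm42, on the minus strand at chr7:30650229-30650478, holds ATTGG, the CCAAT box on the other strand.
Srsf9: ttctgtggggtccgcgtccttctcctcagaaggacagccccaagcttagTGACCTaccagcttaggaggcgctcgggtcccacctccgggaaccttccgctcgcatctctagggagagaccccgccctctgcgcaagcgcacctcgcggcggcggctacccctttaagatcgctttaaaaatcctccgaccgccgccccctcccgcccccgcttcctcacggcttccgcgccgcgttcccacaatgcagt
Rbm45: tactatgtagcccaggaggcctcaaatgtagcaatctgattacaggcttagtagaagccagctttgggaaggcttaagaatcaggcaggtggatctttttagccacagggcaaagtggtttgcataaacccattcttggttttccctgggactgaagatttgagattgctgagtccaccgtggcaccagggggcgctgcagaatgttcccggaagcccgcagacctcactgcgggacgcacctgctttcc
Rbm42: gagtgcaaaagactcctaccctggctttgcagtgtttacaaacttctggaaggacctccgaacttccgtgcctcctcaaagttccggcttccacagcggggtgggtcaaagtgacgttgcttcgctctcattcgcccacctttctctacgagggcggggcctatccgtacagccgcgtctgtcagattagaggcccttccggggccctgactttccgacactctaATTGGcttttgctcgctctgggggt
The bases hold 25 CpG for Srsf9, 6 for Rbm45 and 15 for Rbm42. A link between CpG in the promoter and the change in level was not tested.

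Other splicing genes were counted from lists that are not members. Of 54 genes of the core spliceosome 44 had a negative log2 fold change (median -0.13), beside 50.0% of all tested genes. At an unadjusted p under 0.05 there were 2, each below FLOXED, where 15.6% of all tested genes reached that p and 5.55% did so on the lower side. After adjustment 0 passed. Snrpa1, a U2 snRNP gene, had 32.4 and 37.7 CPM in PELP1 FBKO against 57.9 and 41.8 CPM in FLOXED, and Snrpb, an Sm core gene, had 78.5 and 85.4 CPM against 114 and 94.2 CPM. Both were highest in FLOXED 1. Among 12 kinases and phosphatases of SR proteins, 0 had an unadjusted p under 0.05, against the same 15.6%. Srpk1, which loads SR proteins for import, had 43.5 and 42.2 CPM in PELP1 FBKO against 53.6 and 47.7 CPM in FLOXED. Of 23 SR-related genes 0 reached that p and the median was 0.01.

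Among 36 tested neuronal and other splicing factors the unadjusted p was under 0.05 for 3 on each side, where all tested genes had 10.1% above FLOXED and 5.55% below it. Qk, quaking, a splicing factor of glia, had 377 and 369 CPM in PELP1 FBKO against 224 and 300 CPM in FLOXED, a log2 fold change of 0.51 (SE 0.169, adjusted p = 0.211 in edgeR's quasi-likelihood test). Srrm3, a neuronal microexon regulator, had 42.8 and 43.4 CPM in PELP1 FBKO against 58.9 and 56.3 CPM in FLOXED, and -0.42 (SE 0.127, adjusted p = 0.178). Taf15, which also takes part in transcription initiation, had 67.1 and 76.7 CPM against 93.1 and 97.2 CPM, and -0.40 (SE 0.131, adjusted p = 0.202). Among 11 genes of nonsense-mediated decay, Smg5 had 101 and 99.9 CPM in PELP1 FBKO against 128 and 128 CPM in FLOXED, the 1 gene there with an unadjusted p under 0.05, where 15.6% of all tested genes had one.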

How the data were processed

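What the authors deposited is 1 list of raw counts for each library, by gene symbol and without normalization. Per the submitters' processing notes, the tools were TopHat2 2.0.8b and CASAVA 1.8.2 beside HTSeq, on mouse build mm9, while the series text names a human build. Which HTSeq version, strand mode, overlap mode and annotation were used is not given in the sources used here, and reads aligned to more than 1 place were not counted. The labels' protocols state 50-base single reads from TruSeq libraries. The 5 HTSeq summary rows were dropped before fitting. Of uniquely placed reads, 14.7% to 15.7% lay in no gene.

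Genotypes were compared with edgeR 4.0.16 in R 4.3.3 (TMM, filterByExpr, quasi-likelihood F test, Benjamini-Hochberg over 14978 genes, threshold 0.05). The common dispersion was 0.0201. Standard errors and 95% intervals come from the F statistic. DESeq2 1.42.0, limma-voom (limma 3.58.1), the edgeR exact test, 3 further scalings, changed count filters, a replicate block and leave-one-out fits were alternatives. The quasi-likelihood test, DESeq2, limma-voom and the exact test were run on simulated data with 200 changed genes and a single dispersion. The other alternatives and the sequence searches were not run on simulated data. CPM values are TMM-scaled. Counts of the 2 libraries of a genotype differed by more than sampling noise (chi-square per degree of freedom 17.4 in PELP1 FBKO and 23.3 in FLOXED), so they are not 1 library deposited again. This does not tell separate mice from repeat libraries. Each was counted as a sample. Counting floors cover counting error only, while the 95% intervals of the fold changes include the spread between libraries.

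Transcripts came from GENCODE vM21 (the RefSeq-matched transcript of median length per gene), a newer build than the files', so coordinates are given for RefSeq promoters of GRCm38.p6 only. All 67 genes matched a symbol. In 12 of them an exon overlaps another gene of the files. The genes, the 6 pathway lists and the 12 marker lists were chosen with earlier results of these data known. Named are Pelp1, Rbm3, the genes of each family with the smallest p, the highest level per kb and the largest difference within a genotype, and up to 3 per list; others were chosen after their values were seen. Some genes that the rule names are left out of the text.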

Additional observations from a re-analysis of the deposited data

How the results depend on the processing

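Over all genes, the counts with an adjusted p under 0.05 were 0 higher and 0 lower by edgeR's quasi-likelihood test and by limma-voom. They were 321 and 131 with DESeq2, 562 and 197 with the exact test, 13 and 4 with RLE size factors, 37 and 5 with upper-quartile factors, 20 and 3 with library totals only, 278 and 81 with no count filter, and 39 and 4 under a minimum of 50 reads per library. Leaving out a library gave 0 to 457 higher and 0 to 324 lower. Among the splicing regulators, those with an unadjusted p under 0.05, 2 higher and 5 lower, became 0 higher with DESeq2 and 3 lower with upper-quartile factors, and 0 to 3 higher and 0 to 7 lower without a library. The median log2 fold change of -0.08 was -0.047 with upper-quartile factors, -0.063 with library totals only, and between -0.112 and -0.078 without a library. Over all tested genes the median was 0.0002 in the main fit, 0.0325 with upper-quartile factors and 0.0141 with library totals only. It thus rose by a like amount under those scalings, and lay between -0.0218 and 0.0099 without a library. With the replicate number as a block, 387 genes were higher and 179 lower, and 1 and 3 splicing regulators had an unadjusted p under 0.05. Nothing in the labels says that the numbers pair the libraries, and the deviations of same-numbered libraries had a correlation of -0.118 over 14978 genes. The crossed pairing, added after seeing the data, gave 223 higher and 91 lower. Of 434 values of named splicing regulators under the alternatives, 427 kept their direction and stayed on the same side of the threshold, and 1, Rbm42, passed it. Near 0, signs turned when a library was left out: the log2 fold change ran from -0.1227 to 0.0141 for Srsf1, from -0.1942 to 0.0964 for Srsf10 (0.0179 without PELP1 FBKO 1), from -0.0018 to 0.0471 for Rbm3, from -0.0405 to 0.107 for Hnrnpa2b1 and from -0.0028 to 0.2634 for Hnrnpd. The 434 values cover only the regulators chosen by the naming rule. Others described above also changed sign under the alternatives. Among them, the log2 fold change ran from -0.1805 to 0.0064 for Hnrnpu and from -0.0066 to 0.0753 for Hnrnpk. It ran from -0.1172 to 0.096 for Hnrnph1 and from -0.103 to 0.1391 for Rbm25. The cause of these sign changes was not tested. With 2 libraries per genotype, the interval lay wholly within 1.5-fold for 46 of 65 splicing regulators and reached past it for the others.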
